A study of Rattus norvegicus with 6 samples.

Results

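Potassium channels set the resting potential of a neuron, end its action potentials and shape how often it fires. They are assembled from pore-forming subunits, which carry the ion selectivity, and from auxiliary subunits, which change gating and delivery to the membrane. Voltage-gated, inward rectifier, 2-pore and calcium-activated channels open to different signals, and young cortical neurons acquire them gradually as they become excitable. The transcripts of 45 such subunits, chosen by gene symbol, were examined. A probe set (the group of probes on the array that reads 1 transcript) naming exactly 1 gene was found for 43 of them, of 14506 genes named that way on the array. No probe set named Kcnc4 or Kcnn2 in the annotation used, and neither gene is analysed here.

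RNA came from cortical neurons of Sprague-Dawley rat embryos of day 18, kept for 3 days in a medium labelled NB-N2. The C1q group consisted of 3 arrays of neurons given 10 nM C1q, the recognition protein of the classical complement pathway, for 3 h. The untreated group consisted of 3 arrays of such neurons without an added agent. The labels number the arrays 1 to 3 in each group without saying whether a number marks a separate culture, so p-values rest on a spread from array to array that may be technical.

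Levels are the deposited intensities, on a linear scale. Probe sets bind their targets with different strength, so intensities are compared between arrays and never between genes. Differences are given as log2 fold changes, C1q minus untreated, of log2(intensity + 16), a scale that understates the change of dim genes. Genes above an intensity of 94.4, the limit that keeps the brightest 60% of probe sets, were tested with limma over all 17529 such probe sets. Of the 43 measured subunits 41 lay above it, on every array, and 2 below. Array medians ran from 147 to 150 in the C1q group and from 150 to 155 in the untreated group. All 10 general neuronal markers were above the limit, and their summed intensity ran from 40113 to 42231 on C1q arrays and from 40027 to 43640 on untreated arrays. The sums of 7 measured inhibitory neuron markers did not overlap between groups, at 13306 to 13548 on C1q arrays and 13640 to 14338 on untreated arrays. By itself only Npy was apart, averaging 1675 with C1q and 1800 untreated. Sst, the largest part of the sum at 4972 and 5112, overlapped, as did Gad1, Gad2, Slc32a1, Dlx1 and Lhx6. The means of 6 of the 7 were lower with C1q and that of Lhx6 was higher. The sums of 4 blood markers did not overlap either, at 2293 to 2493 on C1q arrays and 2018 to 2270 on untreated arrays. Of these, Hbb averaged 1155 with C1q and 970 untreated, and Hba-a3 1007 and 895. Alas2, at 138 and 140, and Pf4, at 113 and 114, overlapped between groups. The part of either list in the results was not tested. Of 8 astrocyte markers only Gfap was below the limit. Of 7 microglial markers 6 were below it, Aif1, Cx3cr1, Itgam, Csf1r, Tyrobp and P2ry12, and so was Cspg4 of the oligodendrocyte lineage. Of 7 endothelial and mural markers Pecam1, Kdr, Tek and Rgs5 were below it.

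Single arrays stood apart. On untreated array 1, 36 of the 41 tested subunits were above their own mean over the 6 arrays, with a median deviation of 0.07 log2. On untreated array 2 only 7 were above it, with a median deviation of -0.05. On C1q array 3 there were 8 above, with a median deviation of -0.06. The medians of all tested probe sets moved the same way, at 0.06, -0.03 and -0.03 on these 3 arrays. Summed neuronal markers were also highest on untreated array 1 and lowest on untreated array 2, and their part in the deviations was not tested. The median intensity over all 29215 probe sets, tested or not, did not follow these deviations. It was highest on untreated array 2, at 155.

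**Figure D1:**
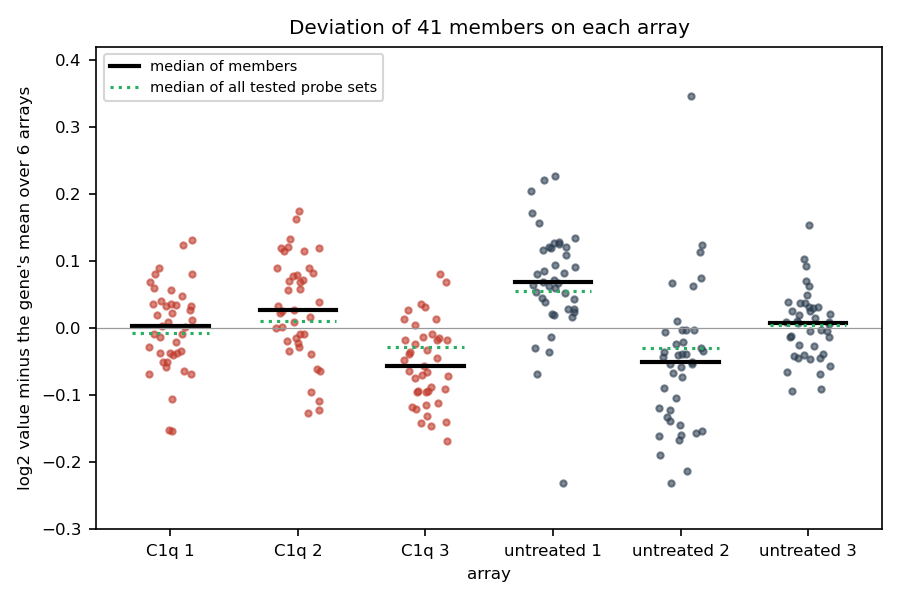
Each point is 1 of the 41 tested subunits, plotted on each array as its log2 value minus its own mean over the 6 arrays. Black bars mark the medians of the subunits and dotted green bars those of all tested probe sets; the subunit median is 0.07 on untreated array 1 and -0.05 on untreated array 2.

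No potassium channel subunit passed the test after 3 h of C1q. At an adjusted p under 0.05 (limma, Benjamini-Hochberg over all tested probe sets), 0 of 41 were higher and 0 lower, and the calls over all probe sets were 0% in each direction. The smallest adjusted p of a subunit was 0.9999. At an unadjusted p under 0.05 the count was again 0 of 41, where 0.622% of all probe sets were higher and 1.87% lower at that level. Log2 fold changes of the subunits ran from -0.12 for Kcnj11 to 0.11 for Kcnb2, with a median of -0.01 beside -0.02 for all probe sets.

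Given the spread between these arrays, the intervals bound how large a difference could have gone unseen on this scale, 1 subunit at a time. If that spread is technical, they do not bound a difference between cultures. Every 95% interval of the 41 subunits included no change. The widest bounds over all of them were folds of 0.767, for Kcnj10, and 1.22, for Kcnb2. For 38 of 41 the whole interval lay between 0.8-fold and 1.25-fold, and the other 3 were Kcnj10, Kcnj11 and Kcnk3. No background level is known for these values, so an interval bounds a change in intensity, not in mRNA. In such bulk RNA, fewer cells of a type and less RNA per cell cannot be told apart.

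**Figure D2:**
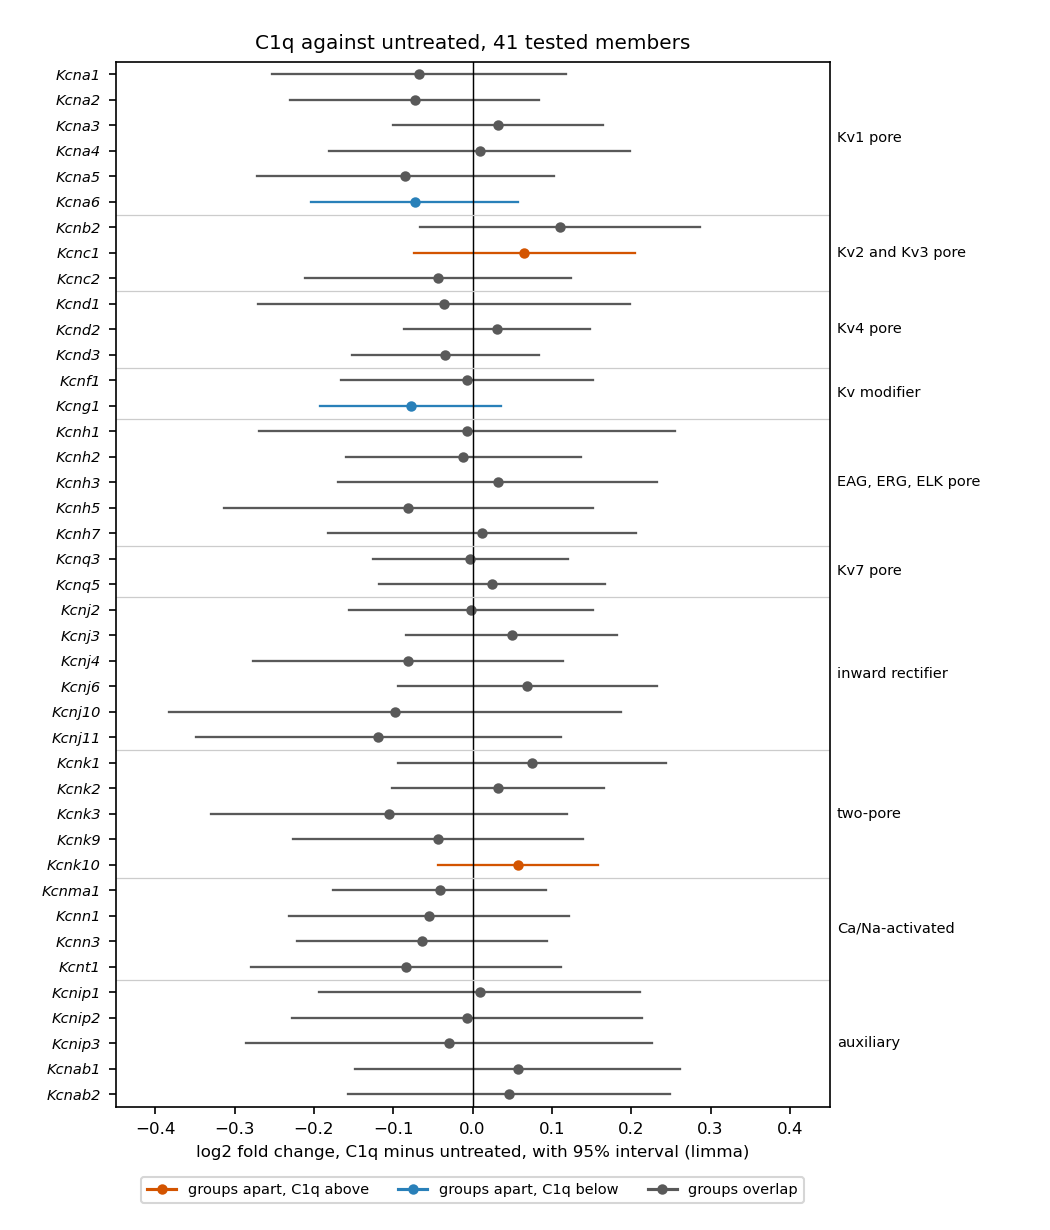
Log2 fold changes, C1q minus untreated, of the 41 tested subunits by family, with 95% intervals from limma. Every interval crosses 0; the groups were apart with C1q above for Kcnc1 and Kcnk10 and with C1q below for Kcna6 and Kcng1.

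Means were higher after C1q for 16 of 41 subunits (39.0%) and lower for 25, beside 36.7% higher over all probe sets. The balance depended on the scaling and on single arrays. Quantile normalization turned it to 23 higher and 18 lower, and centring of each array on its median to 22 and 19. It was 25 to 16 without untreated array 1 and 10 to 31 without untreated array 2, the arrays that stood apart above.

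**Figure D3:**
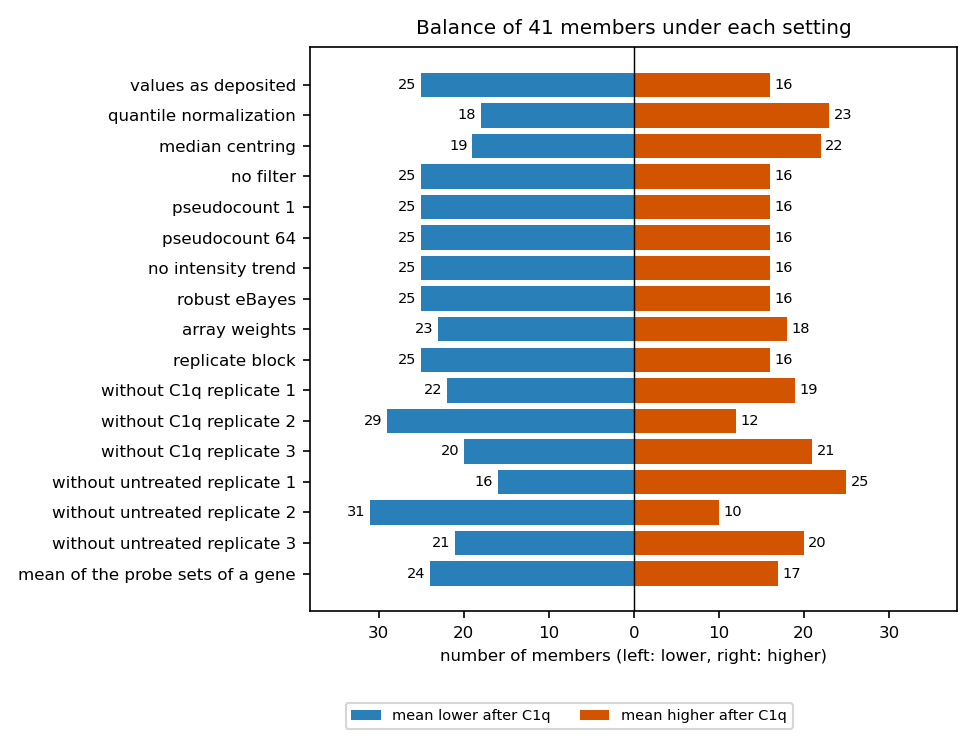
Bars count the 41 tested subunits with a mean higher (right) or lower (left) after C1q under each setting that tested all of them. The balance is 16 to 25 with the values as deposited, and its extremes are 25 to 16 without untreated array 1 and 10 to 31 without untreated array 2.

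For 4 of the 41 subunits the values of both groups were fully apart. C1q lay above for 2 (4.88% of 41), beside 1.30% of all probe sets, and below for 2 (4.88%), beside 4.42%. None of the 4 had an unadjusted p under 0.05. Kcnc1 and Kcna6 are the 2 of these with an upstream sequence in the RefSeq table used, shown here because they differed in direction. The lines give the 250 bases before the gene start, read 5′ to 3′ on the gene's strand, in build GRCr8, with CpG dinucleotides in capitals. The Kcnc1 stretch is chr1:106038997-106039246 on the plus strand and the Kcna6 stretch is chr4:161262353-161262602 on the minus strand.
Kcnc1: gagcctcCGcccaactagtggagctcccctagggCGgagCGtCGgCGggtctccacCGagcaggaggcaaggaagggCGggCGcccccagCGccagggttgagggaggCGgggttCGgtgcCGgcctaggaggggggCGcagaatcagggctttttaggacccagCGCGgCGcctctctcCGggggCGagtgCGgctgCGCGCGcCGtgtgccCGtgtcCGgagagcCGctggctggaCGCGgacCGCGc
Kcna6: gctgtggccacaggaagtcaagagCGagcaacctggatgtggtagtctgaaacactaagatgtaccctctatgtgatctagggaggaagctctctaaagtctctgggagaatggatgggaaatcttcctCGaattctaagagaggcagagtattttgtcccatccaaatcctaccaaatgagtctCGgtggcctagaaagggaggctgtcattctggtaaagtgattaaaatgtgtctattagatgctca

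The Kcnc1 stretch held 30 CpG dinucleotides at 74.4% G and C, and the Kcna6 stretch held 3 at 45.6%. Such windows were matched for 28 of the 43 subunits, 32 windows in all, with a median of 13.5 CpG and 65.0% G and C. The medians over all 33469 RefSeq windows were 5 CpG and 51.2%. Counts among the subunits ran from 1 for Kcna4 to 43 for Kcnd3, whose log2 fold changes were 0.01 and -0.03. The 2 stretches shown were picked by the values of their genes, and a link of CpG content to direction was not tested. The cAMP response element TGACGTCA, the site bound by CREB, was in 0 of 32 windows on either strand, beside 1.59% of all windows. Its half-site TGACG, part of the full element, was in 4 windows on either strand (12.5%), beside 18.2% of all windows. These 4 belonged to Kcnab1, Kcnt1, Kcnj4 and Kcnq5, whose log2 fold changes were 0.06, -0.08, -0.08 and 0.02. Finding none says only that these letters are not in these windows.

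**Figure D4:**
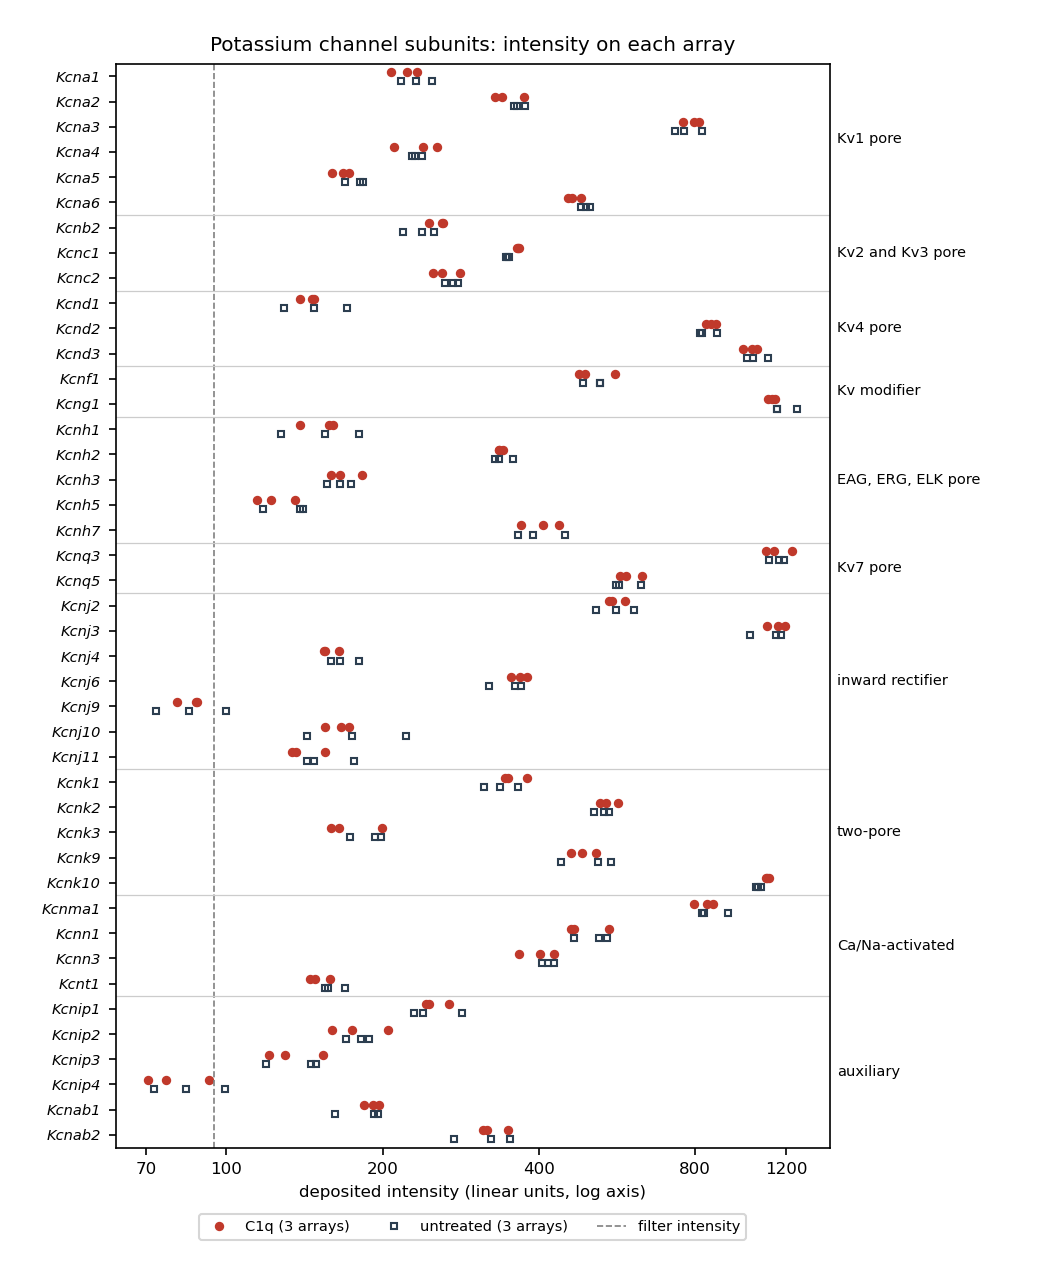
Deposited intensity (log axis) of the 43 measured subunits on each array, grouped by family, with filled circles for the 3 C1q arrays and open squares for the 3 untreated arrays. The dashed line is the limit of 94.4; only Kcnj9 and Kcnip4 average below it, and the groups overlap for all but Kcna6, Kcnc1, Kcng1 and Kcnk10.

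The Kv1 subunits line axons and nerve terminals, where they hold back repetitive firing. Means were lower after C1q for 4 of 6 and higher for 2, and none passed. Kcna6 read 463, 483 and 456 on C1q arrays 1 to 3, against 502, 483 and 492 on untreated arrays 1 to 3. The highest C1q value, 482.99, lay just under the lowest untreated value, 483.04, so the separation rested on a difference of less than 1 intensity unit. Its log2 fold change was -0.07, with a 95% interval of -0.20 to 0.06 and an unadjusted p of 0.246 in limma.

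Kcna2, an axonal subunit, read 339, 330 and 375 with C1q and 363, 377 and 359 untreated. C1q array 3 fell among the untreated values while the other two C1q arrays were below them, and the log2 fold change was -0.07. Kcna1, the subunit altered in human episodic ataxia, averaged 221 ± 12.4 with C1q and 232.5 ± 15.99 untreated (SD, n = 3 each). Kcna5, best known from heart muscle, averaged 167 ± 6.32 and 178 ± 7.84 in C1q-treated and untreated neurons (SD, n = 3 each). In RefSeq's order of protein-coding genes Kcna5, Kcna1 and Kcna6 are direct neighbours on chromosome 4. Their log2 fold changes were -0.08, -0.07 and -0.07.

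The neighbours Kcna3 and Kcna2 on chromosome 2 had opposite signs. Kcna3, known from T lymphocytes as well as neurons, averaged 791 ± 27.7 with C1q and 773 ± 49.1 untreated (SD, n = 3 each), a log2 fold change of 0.03. Kcna4, a rapidly inactivating subunit, averaged 234 ± 22.6 with C1q and 232 ± 5.17 untreated (SD, n = 3 each).

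Kv2 channels carry the slow delayed rectifier of the cell body, and Kv3 channels allow fast spiking. Kcnb2, a Kv2 subunit, read 246, 261 and 261 with C1q, against 251, 219 and 239 untreated. Untreated array 1 lay inside the C1q range and the other two untreated arrays below it. Its log2 difference of 0.11, the highest among the 41, had 95% bounds of -0.07 and 0.29 and an unadjusted p of 0.196. It was 0.06 without untreated array 2, and then lay below that of Kcnc1 at 0.07.

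Kcnc1, a Kv3 subunit of fast-spiking interneurons, read 365, 364 and 366 with C1q and 347, 350 and 346 untreated. All C1q values were above all untreated values, and each group spanned fewer than 5 intensity units. The SDs were 1.17 with C1q and 2.18 untreated (n = 3 each), and the fold was 1.05 with an interval of 0.95 to 1.15. Limma estimates each gene's variance partly from other genes of like intensity, and its unadjusted p was 0.324. The related Kcnc2 averaged 264 ± 16.2 with C1q and 272 ± 8.04 untreated (SD, n = 3 each).

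Kv4 subunits carry the rapidly inactivating A-type current of dendrites. Kcnd2 read 881, 861 and 841 with C1q and 883, 820 and 825 untreated. The C1q values lay within the untreated range, at a log2 fold change of 0.03. Kcnd3 averaged 1025 ± 32.0 and 1050 ± 52.1, and Kcnd1 144 ± 4.86 and 149 ± 21.0, in C1q-treated and untreated neurons (SD, n = 3 each). Kcnd1 spread more widely over untreated arrays than over C1q arrays, from 129 to 171 against 139 to 148.

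Kcng1 and Kcnf1 encode silent subunits, which form no channel alone but modify Kv2 channels. Kcng1 read 1106, 1126 and 1144 with C1q and 1259, 1154 and 1154 untreated. The C1q values were all lower, with untreated arrays 2 and 3 close above the highest C1q value and untreated array 1 further up. Its unadjusted p of 0.160 was the smallest among the subunits, at a log2 fold change of -0.08 (95% interval -0.19 to 0.04.) Without untreated array 1 the log2 fold change was -0.04. Kcnf1 read 492, 561 and 477 with C1q and 525, 486 and 524 untreated. Its untreated values fell inside the C1q range, and the log2 fold change was -0.01.

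The EAG, ERG and ELK subunits form voltage-gated channels with slow or unusual gating. Kcnh2, the ERG subunit that also repolarises heart muscle, read 341, 335 and 335 with C1q and 335, 329 and 356 untreated. The groups overlapped, at a log2 fold change of -0.01. The ERG subunit Kcnh7 averaged 405 ± 33.9 with C1q and 402 ± 43.7 untreated (SD, n = 3 each). Of the EAG subunits, Kcnh1 was at 152 ± 11.8 with C1q and 154 ± 26.5 untreated and Kcnh5 was at 124 ± 10.8 with C1q and 132 ± 12.5 untreated (SD, n = 3 each). Kcnh3, of the ELK branch, averaged 169 ± 12.3 with C1q and 165 ± 9.02 untreated (SD, n = 3 each). Of these 5 the means of 2 were higher and 3 lower, and either rescaling turned this to 4 higher and 1 lower.

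Kv7 subunits form the M-current, a slow brake on firing that muscarinic receptors switch off. Kcnq3 read 1229, 1138 and 1095 with C1q and 1191, 1112 and 1163 untreated. The untreated values lay within the C1q range, and the log2 fold change was -0.003 with an interval of -0.12 to 0.12. Kcnq5 averaged 599 ± 29.9 with C1q and 588 ± 34.9 untreated (SD, n = 3 each).

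Inward rectifiers hold the membrane near its resting potential, and the GIRK subunits among them open when G-protein-coupled receptors are active. Kcnj6, which encodes the GIRK2 subunit, read 380, 368 and 353 with C1q and 370, 320 and 359 untreated. The lowest value was on untreated array 2, and the groups overlapped at a log2 fold change of 0.07. Kcnj3, which encodes its partner GIRK1, averaged 1151 ± 47.6 with C1q and 1113 ± 80.4 untreated (SD, n = 3 each). Kcnj9, encoding GIRK3, was below the limit for testing, at 87.2, 80.4 and 87.7 with C1q and 84.8, 99.8 and 73.0 untreated. The C1q values of Kcnj9 lay inside the untreated range.

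Kcnj10 encodes Kir4.1, which in the mature brain is best known from astrocytes and oligodendrocytes. It read 166, 155 and 173 with C1q, against 143, 222 and 175 untreated. Untreated array 2 was the highest and untreated array 1 the lowest of all 6, an order opposite to that of most subunits. The order over untreated arrays was not particular to Kcnj10. Potassium channel genes outside the list had it too, such as Kcnk18, at 132, 192 and 149, and Kcnn4, at 148, 237 and 218. These examples were picked after their values were seen, and not all of those genes shared the order. Its coefficient of variation over untreated arrays, 22.0%, was the highest of the 41, beside a median of 6.55%. The log2 fold change was -0.10, but it was 0.05 without untreated array 2 and -0.24 without untreated array 1, and neither fit called it. The summed intensity of the 8 astrocyte markers was 3268 on untreated array 2, the lowest of the 6 arrays, and that of the 6 oligodendrocyte lineage markers 930, inside the range of 912 to 1033 of the other two untreated arrays. Aldoc alone made up 1563 of the astrocyte sum there. The dim astrocyte marker S100b read 107, 77.5 and 96.7 with C1q and 78.8, 122 and 104 untreated. Over the untreated arrays S100b, Aldh1l1 and Gfap had the same order as Kcnj10. The other astrocyte markers did not: among untreated arrays Slc1a2, Slc1a3, Gja1 and Aldoc were lowest on array 2, and Aqp4 on array 3. The sum of 7 endothelial and mural markers, of which only 3 were above the limit, was highest on untreated array 2, at 669. Their part in the Kcnj10 values was not tested.

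Kcnj11 forms the pore of ATP-sensitive channels, which couple energy supply to excitability. It read 136, 155 and 134 with C1q and 176, 148 and 143 untreated. C1q array 2 lay among the untreated values, and the log2 difference of -0.12, the lowest of the 41, had 95% bounds of -0.35 and 0.11 and an unadjusted p of 0.282. It was -0.03 without untreated array 1, and then no longer the lowest. The sulfonylurea receptor gene Abcc8, its usual partner in neurons, averaged 146 ± 5.0 with C1q and 152 ± 6.35 untreated (SD, n = 3 each). Of the Kir2 subunits, which rectify strongly, Kcnj2 averaged 562 ± 20.6 and 564 ± 47.9, and Kcnj4 158 ± 5.69 and 168 ± 11.01, in C1q-treated and untreated neurons (SD, n = 3 each).

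Channels with 2 pore domains per subunit carry the background leak current. Kcnk10, which encodes the mechanically gated TREK2, read 1110, 1100 and 1103 with C1q and 1060, 1050 and 1072 untreated. Every C1q value was above every untreated value, at a fold of 1.04 with an interval of 0.970 to 1.12. Its coefficients of variation were 0.478% with C1q and 1.07% untreated, and the unadjusted p was 0.240. Kcnk2, encoding the related TREK1, averaged 544 ± 23.1 with C1q and 531 ± 18.05 untreated (SD, n = 3 each).

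Kcnk1, encoding TWIK1, read 344, 379 and 348 with C1q and 365, 314 and 336 untreated. The ranges overlapped, and the log2 fold change was 0.08. Kcnk3, encoding the acid-sensitive TASK1, read 200, 165 and 159 with C1q and 194, 198 and 173 untreated. C1q array 1 was the highest of the 6 and the other two C1q arrays the lowest, at a log2 fold change of -0.11 and an unadjusted p of 0.324. Kcnk9, encoding TASK3, averaged 487 ± 26.9 with C1q and 504 ± 57.1 untreated (SD, n = 3 each).

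Calcium-activated and sodium-activated channels follow spikes with a hyperpolarisation. None of the 4 listed subunits measured, Kcnma1, Kcnn1, Kcnn3 and Kcnt1, passed. Their means were lower after C1q with the values as deposited and with either rescaling, but array weights gave higher means for Kcnma1 and Kcnn1, at log2 fold changes of 0.01 and 0.08. Without untreated array 1 that of Kcnma1 was also 0.01. Kcnn4 and Kcnt2, a calcium-activated and a sodium-activated subunit outside the list, had log2 fold changes of 0.09 and 0.07 and did not pass either. Kcnma1, the large-conductance BK subunit, read 869, 843 and 797 with C1q and 927, 826 and 832 untreated. The ranges overlapped, and untreated array 1 was the highest. Kcnt1, the sodium-activated Slack subunit, read 158, 148 and 145 with C1q and 157, 169 and 155 untreated. C1q array 1 lay among the untreated values, and the log2 fold change was -0.08 with an interval of -0.28 to 0.11. Of the small-conductance SK subunits, Kcnn1 averaged 492 ± 47.5 with C1q and 511 ± 37.7 untreated, and Kcnn3 399 ± 31.2 with C1q and 417 ± 10.5 untreated (SD, n = 3 each).

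Auxiliary subunits were measured for both Kv4 and Kv1 channels. Kcnip4, a calcium-binding partner of Kv4 channels, was below the limit for testing, at 76.3, 92.5 and 70.6 with C1q and 99.4, 72.5 and 83.7 untreated. The groups of Kcnip4 overlapped. Its relatives Kcnip1, Kcnip2 and Kcnip3, of which the last is also described as the transcriptional repressor DREAM, had log2 fold changes of 0.01, -0.01 and -0.03. Kcnip1 averaged 252 ± 14.02 with C1q and 251 ± 29.4 untreated, and Kcnip3 135 ± 17.2 with C1q and 138 ± 16.4 untreated (SD, n = 3 each). Kcnip2 averaged 179.7 ± 22.8 with C1q and 179.95 ± 9.28 untreated (SD, n = 3 each). Kcnip1 and Kcnip2 had 2 probe sets each, with log2 fold changes of 0.01 and 0.003 for Kcnip1 and of -0.01 and 0.01 for Kcnip2.

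Kcnab2, a cytoplasmic beta subunit of Kv1 channels, read 312, 349 and 318 with C1q and 352, 274 and 324 untreated. The C1q values lay within the untreated range, at a log2 fold change of 0.05. Kcnab1, another Kv1 beta subunit, averaged 191 ± 6.20 with C1q and 183 ± 18.8 untreated (SD, n = 3 each), a log2 fold change of 0.06. Of the 5 tested auxiliary subunits the means of 3 were higher and 2 lower. Quantile normalization made all 5 higher, and median centring 4.

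Tested probe sets were split by mean intensity into 3 bands of equal size, a split added after the data were seen. The dimmest band, up to an intensity of 260, held 17 subunits with log2 fold changes from -0.12 to 0.11, of which 5 means were higher and 12 lower. The middle band held 17 with log2 fold changes from -0.07 to 0.08, 8 higher and 9 lower. The brightest band, from 795 upwards, held 7 with log2 fold changes from -0.08 to 0.06, 3 higher and 4 lower. Means were lower for 61.3%, 60.8% and 67.8% of all probe sets in the dimmest, middle and brightest band.

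Among other potassium channel and auxiliary genes 49 were measured and 28 tested. None passed in either direction (limma), none had an unadjusted p under 0.05, and the groups overlapped for all 28. The means of 11 were higher and 17 lower, with a median log2 fold change of -0.03. Kcnk18, a further 2-pore subunit, averaged 139 ± 1.20 with C1q and 158 ± 31.0 untreated, and Kcnv2, a silent subunit, 99.9 ± 7.69 and 110 ± 7.68 (SD, n = 3 each). The higher means of smallest unadjusted p belonged to the silent subunits Kcnv1, at 119 ± 3.41 with C1q and 109 ± 16.7 untreated, and Kcns2, at 243 ± 4.65 and 231 ± 11.8 (SD, n = 3 each).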

How the data were processed

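Per the labels' protocols, column-purified total RNA was turned into biotin-labelled cRNA in the way Affymetrix prescribes. The authors deposited 1 linear intensity per probe set and array, 29215 probe sets on 6 arrays. How these were summarised, background-corrected and normalized is not given in the sources used here, and no detection calls were used. The number of arrays limits the precision. Gene names came from the platform annotation, updated by gene identifier to RefSeq (GRCr8), which changed 0 symbols. Of the subunits, 43 had a probe set naming 1 gene, and the one of highest mean log2(intensity + 16) was used. Array medians differed by at most 0.070 log2, under a limit of 0.1, so values were not rescaled. The brightest 60% of probe sets were compared between groups in limma 3.58.1 (R 4.3.3), with lmFit and then eBayes, letting the prior variance follow intensity. P-values were adjusted by Benjamini-Hochberg over 17529 probe sets. Every subunit is named. Values on each array are given for subunits whose groups did not overlap, the 6 of smallest unadjusted p, and a list of well-known ones chosen by name, plus the 2 below the limit. Of the other potassium channel genes, the 2 of smallest unadjusted p in each direction are named, and Abcc8, Kcnn4 and Kcnt2 were added after their values were seen. The subunits and lists were chosen with earlier results of these data known.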

Additional observations from a re-analysis of the deposited data

How the results depend on the processing

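Across 17 alternatives no potassium channel subunit was called in either direction, and their adjusted p stayed at or above 0.181, reached by Kcna3 with array weights. Counts over all probe sets did change. Array weights gave 130 higher and 317 lower, in a fit that rested mostly on untreated array 3 (weight 5.51, against 0.362 and 0.335 for untreated arrays 1 and 2). Without the filter 1 was lower. With the replicate number as a block, 9 were higher and 0 lower. Leaving out each array gave 0 to 28 higher and 0 to 10 lower, all of them without untreated array 2, and 10 to 25 of 41 subunits with a higher mean. In the same fits 5450 to 8822 of all 17529 probe sets had a higher mean. Deviations of same-numbered arrays from their group means correlated at 0.01, -0.45 and -0.13 across probe sets. Those of differently numbered arrays correlated at -0.37 to 0.45. With 3 arrays per group and whole arrays that shifted, these correlations cannot show whether a number marks a shared culture. The labels state no pairing, and the main fit used none. Under every alternative that tested them 17 of 41 subunits kept the sign of their difference, 6 higher and 11 lower, and the causes of the other changes were not tested. Alternatives that changed only the filter, the variance estimate or the block left each log2 difference as it was, so they could not change a sign. The share keeping its sign over all probe sets is not given here. The brightest 40% held 24 of the 41. Signal over background is unknown, which limits what can be said of dim subunits.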
